A study of Mus musculus with 6 samples.

Results

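The chemokines and chemokine receptors of mouse satellite cells (SCs) were examined here, as the genes whose symbols name a CC, CXC or CX3C ligand or a CC or CXC receptor and that had any count. Of 54 gene symbols matching this rule, 46 had a count in at least 1 library (32 ligands and 14 receptors), among 35976 genes in the files and 27008 genes with any count. The other 8 (Ccl1, Ccl21a, Ccl21c, Ccl22, Ccl26, Ccr6, Ccr8 and Cxcl15) were at 0 in every library, which at 3 counts allows up to 0.0705 to 0.115 CPM (counts relative to library size), depending on the library.

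The 3 RNA-seq libraries of SCs of the NF-YA cKO genotype were compared with 3 of NF-YA fl/fl. Both genotypes carry floxed alleles of Nfya, the gene of the DNA-binding subunit of the CCAAT-binding factor NF-Y, and both received tamoxifen at 20 mg/ml, at an age of 5 to 7 weeks by the labels, while the methods give a slightly older range. In NF-YA cKO mice a tamoxifen-activated Cre under the control of Pax7, a gene of SCs, deletes the floxed part, while NF-YA fl/fl mice lack Cre. The cells were isolated by magnetic depletion of cells labelled for CD31, CD45, CD11b and Sca1 and kept in growth medium. Other cells that such a culture still holds would keep the floxed gene, since Cre acts in Pax7-expressing cells, and in RNA from whole cultures fewer cells of a type and less RNA per cell cannot be told apart.

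The targeted gene and the libraries were checked first. The transcript entry that the authors added for the deleted Nfya allele held 27.2%, 32.0% and 40.5% of Nfya TPM in NF-YA cKO replicates 1 to 3 and 0 in the NF-YA fl/fl libraries, while the gene's total was similar (27.5 ± 0.874 against 28.7 ± 7.2 CPM, SD, n = 3 each). Xist, the X-inactivation RNA of female cells, was at 836 to 852 CPM in NF-YA cKO and at most 0.475 CPM in the NF-YA fl/fl libraries, and the Y-linked gene Ddx3y was at most 0.0957 CPM in NF-YA cKO and at least 80.95 CPM in NF-YA fl/fl. The methods describe male mice, so the NF-YA cKO libraries go against that description, and sex and genotype cannot be told apart in any comparison below. Library totals ran from 26936230 to 41118984 expected counts. NF-YA fl/fl replicate 3 stood apart from the other libraries of its genotype: it held the lowest NF-YA fl/fl value of 16 of the 25 tested chemokine and receptor genes, against 38.0% of all tested genes. Values without it are given beside the genes whose direction or call it changed or whose fold it moved by more than 1.5 times, and for some others.

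Chemokines are small secreted proteins that bind G protein-coupled receptors and direct the migration of leukocytes and of other cells along gradients. Their families are named after the first cysteines of the mature protein, which are adjacent in CC chemokines, separated by a single residue in CXC chemokines and by several residues in CX3C chemokines. In injured muscle, CC ligands recruit monocytes and macrophages and CXC ligands with a Glu-Leu-Arg motif recruit neutrophils, while CXCL12 and its receptor CXCR4 guide muscle precursors during development.

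The coding stretches around these cysteines are shown for some of the most abundant or most changed ligands of each family, as 36 bases read 5′ to 3′ along the gene's strand in GENCODE transcripts (GRCm38), with the first cysteine codons in capitals. In the CC ligands the codons were adjacent (Ccl2 chr11:82036494-82036529, Ccl6 chr11:83589368-83589403, Ccl9 chr11:83575908-83575943, all coding exon sequence).
Ccl2: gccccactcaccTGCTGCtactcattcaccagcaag
Ccl6: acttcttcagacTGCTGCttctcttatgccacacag
Ccl9: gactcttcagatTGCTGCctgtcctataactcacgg
In the CXC ligands 1 codon stood between them (Cxcl1 chr5:90891484-90891519, Cxcl2 chr5:90904130-90904165, Cxcl12 chr6:117171496-117171531), and in Cxcl1 and Cxcl2 the 3 codons just before encode Glu-Leu-Arg.
Cxcl1: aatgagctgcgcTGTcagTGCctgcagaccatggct
Cxcl2: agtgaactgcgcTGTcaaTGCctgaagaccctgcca
Cxcl12: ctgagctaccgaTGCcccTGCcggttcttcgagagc
In Cx3cl1, whose protein is tethered to the membrane, 3 codons stood between the cysteine codons (chr8:94778039-94778074).
Cx3cl1: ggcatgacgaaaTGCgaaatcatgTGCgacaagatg

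The levels in the 6 libraries were first set side by side over the whole family. The rounded expected counts of 25 of the 46 genes passed the low-count filter (more than 10 counts in at least 2 libraries), and these were tested with edgeR among 17348 genes. In NF-YA cKO SCs 6 of them were called higher (a log2 fold change above 1 at an FDR under 0.01): the ligands Ccl3, Ccl6, Ccl9 and Cxcl2 and the receptors Ccr1 and Cxcr2. Over all tested genes 4.65% were called higher. DESeq2 called 9, among them Cxcl16 and Cxcl3, while limma on log2(TPM + 1), glmTreat against a log2 fold change of 1, and the fits without NF-YA cKO replicate 2 or without NF-YA fl/fl replicate 1 called 2 each. No chemokine or receptor gene was called lower by edgeR, none had a negative fold change at an unadjusted p under 0.05, and DESeq2 and limma called 0 as well, while 7.67% of all tested genes were called lower. Every NF-YA cKO library lay above every NF-YA fl/fl library for 11 of the 25 genes and below for 0, against 29.1% and 26.2% of all tested genes. The median log2 fold change of the 25 genes was 0.99, against -0.02 over all tested genes, with 18 positive and 7 negative values.

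The filter bears on these counts. Of the 25 genes, 7 passed it only through NF-YA cKO libraries and 3 of them were called (Ccl3, Ccr1 and Cxcl2), where 18.8% of the 860 tested genes that passed in this way were called higher. Of the other 18, 3 were called (Ccl6, Ccl9 and Cxcr2), against 3.91% of 16488 genes. The count of 6 over the genes that passed is thus a description and not evidence about the whole family.

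**Figure D1:**
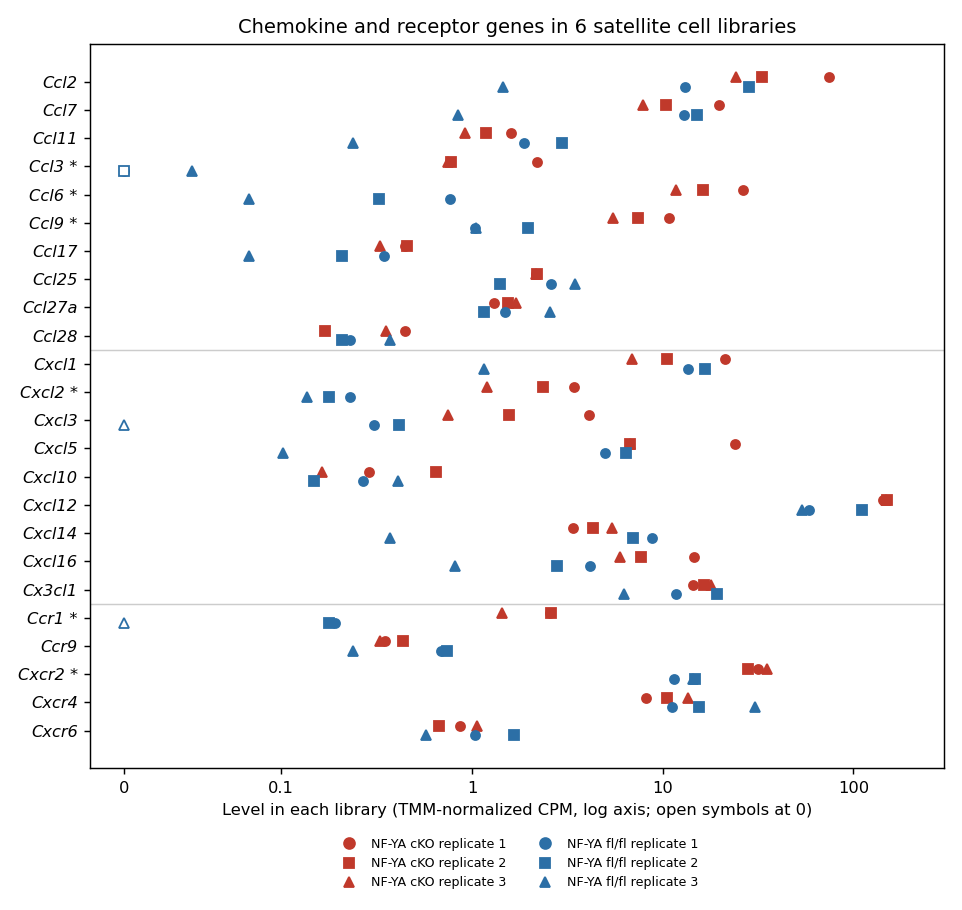
Level of 24 of the 25 tested genes in each library, as TMM-normalized CPM on a log axis, with NF-YA cKO in red and NF-YA fl/fl in blue, a symbol for each replicate and an asterisk on the 6 called genes. For Ccl6 the NF-YA cKO libraries sit between 11.7 and 26.5 CPM and the NF-YA fl/fl libraries between 0.0679 and 0.765 CPM, while for Ccl7 and Cxcl1 NF-YA fl/fl replicate 3 sits far to the left of the other libraries.

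Markers of other cell types moved with genotype. Of 17 tested macrophage markers 15 were called higher in NF-YA cKO and 0 lower. Their summed level (18 genes) ran from 165 to 307 TPM in NF-YA cKO and from 6.98 to 23.8 TPM in NF-YA fl/fl. Of the 15, Ptprc, Adgre1, Fcgr3, C1qa, C1qb, C1qc, Tyrobp, Fcer1g and Spi1 passed the filter only through NF-YA cKO libraries, as did the neutrophil marker S100a8. Of all tested genes that passed in this way 18.8% were called higher, so these counts are descriptions. Lyz2, the lysozyme of myeloid cells, was at 190.0, 203 and 101 CPM against 4.01, 6.25 and 1.97 CPM. Ptprc, which encodes the CD45 used for depletion, was at 3.06, 2.80 and 1.15 CPM against 0, 0.149 and 0.17 CPM, Itgam (CD11b) was at 6.20 to 11.3 against 0.862 to 1.45 CPM, and Csf1r and Adgre1 were called higher as well. Of 4 tested neutrophil markers 2 were called higher, one of them Cxcr2 itself and the other S100a8 (281 counts against 1 over 3 libraries each, a ratio of 225 with a 95% exact interval of 40.1 to 8940). The other pair was not called, S100a9 at 0.188 to 1.47 CPM against 0 in every NF-YA fl/fl library (FDR 0.0293, edgeR) and Csf3r at 0.383, 0.362 and 0.212 against 0.268, 0.387 and 0.916 CPM (log2 fold change -0.73, FDR 0.312). The neutrophil list also named Ly6g, Elane, Mpo, Camp and Ngp, which did not pass the filter. Their highest count was 22 (Mpo, NF-YA cKO replicate 1). No T and NK cell or B cell marker passed the filter, Cd3e had at most 0.0470 CPM, and Cd2, Gzma and Ms4a1 were at 0. Their part in the chemokine values was not tested.

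The lists of cultured muscle and stromal cells did not all move in the same direction. Fibro-adipogenic progenitor markers, of the stromal cells of muscle, had 1 of 9 called higher (Lum) and 0 lower, and summed to 272 to 389 TPM in NF-YA cKO and to 291, 501 and 75.6 TPM in NF-YA fl/fl replicates 1 to 3. Pdgfra, their defining receptor, was at 104, 77.7 and 84.1 CPM against 132, 146 and 21.6 CPM. Of 10 satellite cell and myoblast markers 2 were lower (Des and Cdh15), and Pax7 (146 to 201 against 73.5 to 105 CPM) and Myod1 (510 to 627 against 295 to 1146 CPM) were present in every library. All 6 tested markers of differentiating muscle were lower, at a sum of 35.1 to 86.4 against 5000 to 6224 TPM, among them Myog at 10.7 to 31.4 against 584 to 1450.0 CPM. Schwann cell markers had 4 of 5 called higher, the pericyte list 1 of 5 lower (Abcc9), and the endothelial list 1 of 7 higher (Kdr) and 1 lower (Vwf), with Pecam1 at 1.95 to 2.20 against 0.994 to 1.60 CPM.

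**Figure D2:**
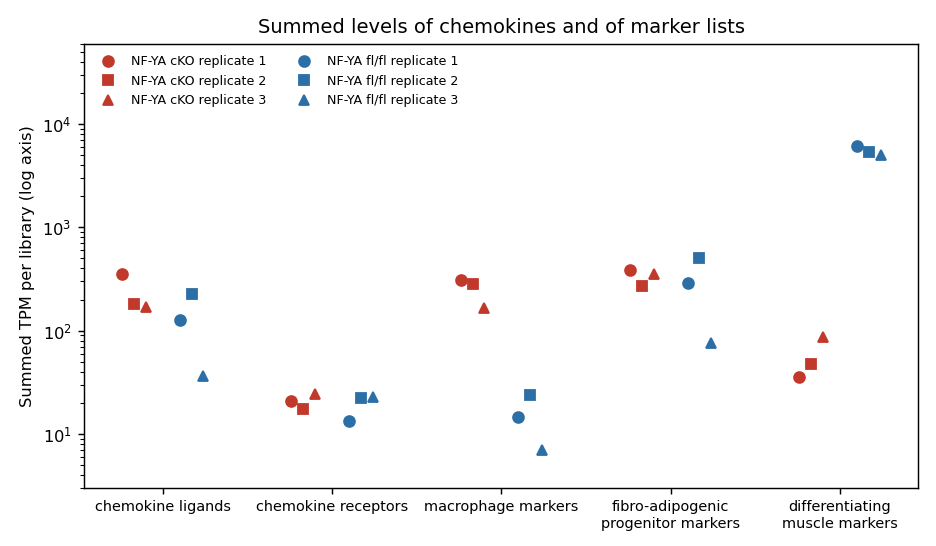
Summed TPM in each library (log axis) of the 32 ligands, the 14 receptors and 3 marker lists, NF-YA cKO in red and NF-YA fl/fl in blue. The macrophage and differentiating muscle sums separate the genotypes in opposite directions, whereas the ligand sums overlap. NF-YA fl/fl replicate 3 is lowest of its genotype in ligands (36.6 TPM) and in fibro-adipogenic progenitor (75.6 TPM), macrophage (6.98 TPM) and differentiating muscle markers (5000 TPM). In CPM, not drawn here, the differentiating muscle sum is lowest in NF-YA fl/fl replicate 2 (8057 CPM).

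The inflammatory CC ligands fell into a group with called changes and a group without. Ccl2, Ccl7 and Ccl11, which attract monocytes and eosinophils, lie together on chromosome 11 between 82035577 and 82062955 (GRCm38), and none of the 3 was called. Ccl5, Ccl9, Ccl6, Ccl3 and Ccl4 lie in a second cluster on the same chromosome between 83525778 and 83664683, which holds all 3 called CC ligands, and the macrophage markers above moved in the same direction as these 3. The 3 are Ccl3 (macrophage inflammatory protein 1 alpha), a ligand of CCR1, and Ccl6 and Ccl9, rodent CC chemokines that signal through CCR1.

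Ccl6 was at 26.5, 16.3 and 11.7 CPM in NF-YA cKO replicates 1 to 3 and at 0.765, 0.327 and 0.0679 CPM in the NF-YA fl/fl libraries. The genotypes were far apart, with a log2 fold change of 5.58 (SE 0.66, FDR 0.00138, edgeR). Ccl6 was called under all 14 alternative settings, although its fold moved from 47.8 to 87.2 without NF-YA fl/fl replicate 1. In TPM, which allows levels to be compared between genes, it was the gene at place 5 among the 46 in NF-YA cKO (15.4 ± 7.32 TPM, SD, n = 3) and at place 19 in NF-YA fl/fl (0.360 ± 0.315 TPM). The annotated gene of Ccl6 overlaps E230016K23Rik.

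Ccl9 was at 10.8, 7.38 and 5.50 CPM in NF-YA cKO and at 1.03, 1.96 and 1.05 CPM in the NF-YA fl/fl libraries, for a log2 fold change of 2.53 (SE 0.37, FDR 0.00277, edgeR). The genotypes did not overlap. The call was lost without NF-YA cKO replicate 1, NF-YA cKO replicate 2 or NF-YA fl/fl replicate 1 (FDR 0.0122 to 0.0159).

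Ccl3 was nearly confined to NF-YA cKO, at 69, 32 and 32 counts against 0, 0 and 1 count (2.20, 0.772 and 0.752 CPM against 0, 0 and 0.0339 CPM). Over the libraries of each genotype this is a ratio of 107 with a 95% exact interval of 18.8 to 4250, for counting error only. The fitted log2 fold change of 6.37 (SE 0.96, FDR 0.00304, edgeR) depends on the prior count of the fit. The call was lost without NF-YA cKO replicate 2, NF-YA fl/fl replicate 1 or NF-YA fl/fl replicate 2 (FDR 0.0111 to 0.0164), and the fitted fold went from 82.7 to 50.9 without NF-YA cKO replicate 1 and to 342 without NF-YA fl/fl replicate 3, which leaves 0 counts in NF-YA fl/fl. Ccl4, whose annotated gene overlaps Ccl3, stayed below the filter with 24, 10 and 10 counts against 3, 1 and 1 count.

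Ccl2, the monocyte chemoattractant that acts through CCR2, was the most abundant chemokine of NF-YA cKO SCs by mean TPM (75.4 ± 51.2 against 28.8 ± 30.0 TPM, SD, n = 3 each). This place rests on NF-YA cKO replicate 1 (134.31 TPM, against 61.05 TPM for Cxcl12). In NF-YA cKO replicates 2 and 3 Ccl2 (50.37 and 41.61 TPM) was below Cxcl12 (53.5 and 59.91 TPM). The CPM values of Ccl2 were 74.8, 33 and 24.2 in NF-YA cKO and 13, 28.3 and 1.46 in NF-YA fl/fl. The genotypes overlapped, and the log2 fold change of 1.62 (SE 0.89, FDR 0.192, edgeR) was not called. Its fold of 3.07 became 6.07 without NF-YA fl/fl replicate 2, 2.1 without NF-YA fl/fl replicate 3 and 1.96 without NF-YA cKO replicate 1.

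Ccl7, a neighbour of Ccl2 that attracts monocytes through CCR2 and other receptors, was at 19.7, 10.4 and 7.87 CPM against 13, 15.2 and 0.848 CPM (log2 fold change 0.39, FDR 0.744, edgeR). Without NF-YA fl/fl replicate 3 its log2 fold change was -0.17, and without NF-YA cKO replicate 1 it was -0.12. Ccl11, the eotaxin that attracts eosinophils through CCR3, was at 1.59, 1.18 and 0.917 CPM against 1.87, 2.97 and 0.238 CPM (log2 fold change -0.47, FDR 0.634). Its log2 fold change was 0.22 without NF-YA fl/fl replicate 2 and -1 (FDR 0.0409, edgeR) without NF-YA fl/fl replicate 3. Both Ccl7 and Ccl11 overlapped between the genotypes, and within NF-YA fl/fl the highest library exceeded the lowest 19.4-fold for Ccl2, 17.9-fold for Ccl7 and 12.5-fold for Ccl11. Replicate 3 was the lowest library for each of the 3 genes. Of the NF-YA fl/fl libraries it also had the lowest sums of fibro-adipogenic progenitor (75.6 TPM), macrophage (6.98 TPM), pericyte (23.5 TPM), endothelial (1.95 TPM) and differentiating muscle markers (5000 TPM). In CPM, however, the differentiating muscle sum was lowest in NF-YA fl/fl replicate 2 (8057 CPM, against 9982 CPM in replicate 3). The sum of satellite cell and myoblast markers was highest in replicate 3 (1776 TPM). The part of any of these cells in the levels of the 3 genes was not tested.

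Of the CXC ligands with the Glu-Leu-Arg motif, which act on neutrophils through CXCR2, 1 of 4 was called. Cxcl2 (macrophage inflammatory protein 2) was at 3.41, 2.37 and 1.20 CPM in NF-YA cKO and at 0.229, 0.178 and 0.136 CPM in the NF-YA fl/fl libraries. The genotypes were separate, and the log2 fold change was 3.66 (SE 0.50, FDR 0.00217, edgeR). The call was lost without NF-YA cKO replicate 2 or NF-YA fl/fl replicate 1 (FDR 0.0133 and 0.0115).

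Cxcl3 followed the same order at a lower certainty, with 4.11, 1.57 and 0.752 CPM against 0.306, 0.416 and 0 CPM (log2 fold change 3.11, SE 0.96, FDR 0.0401, edgeR). Its fold of 8.61 became 4.62 without NF-YA cKO replicate 1, 5.70 without NF-YA fl/fl replicate 3 and 14.1 without NF-YA fl/fl replicate 2. Cxcl5, an epithelial-type neutrophil attractant, was at 24.1, 6.76 and 6.75 CPM against 4.97, 6.39 and 0.102 CPM (log2 fold change 1.71, FDR 0.234). Its genotypes did not overlap in CPM, but NF-YA cKO replicates 2 and 3 lay close to NF-YA fl/fl replicate 2, and its fold of 3.26 became 1.72 without NF-YA cKO replicate 1, 2.17 without NF-YA fl/fl replicate 3 and 4.95 without NF-YA fl/fl replicate 2. In TPM the genotypes of Cxcl5 overlapped, at 18.4, 4.39 and 4.97 against 3.75, 5.88 and 0.06 TPM.

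Cxcl1 (KC), the fourth ligand of this group and the most abundant of the 4 by mean TPM (17.8 ± 11.4 against 16.7 ± 14.1), did not separate the genotypes. It was at 21.2, 10.5 and 6.91 CPM against 13.7, 16.7 and 1.15 CPM (log2 fold change 0.29, FDR 0.805, edgeR), and the log2 fold change was -0.25 without NF-YA fl/fl replicate 3 and -0.30 without NF-YA cKO replicate 1. Cxcl1, Cxcl2, Cxcl3 and Cxcl5 lie in 1 cluster on chromosome 5 between 90759298 and 90905938. RSEM divided reads between near-identical transcripts, and the counts of 10 of the 46 genes were not whole in some libraries, so that their levels are estimates. Tested genes among them were Ccl9, Ccl27a, Cxcl2, Cxcl3, Cxcl16 and Cxcr2, of which Ccl9, Cxcl2 and Cxcr2 were called.

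The promoters of these genes were searched for the CCAAT pentamer bound by NF-Y and for the NF-kB consensus, on both strands, from 250 bases before to 50 after the start site (RefSeq, GRCm38.p6). Of the 46 genes, 32 had a promoter entry, with 38 windows in all. CCAAT was found in 28.9% of these windows and in 37.4% of all 32851 windows, and among the 6 called genes in 1, Cxcr2. The NF-kB consensus was found in 21.1% of the windows and in 4.51% of all windows. The 8 genes of the family that held it were Ccl9, Ccl20, Ccl27a, Ccr3, Cxcl1, Cxcl2, Cxcl3 and Cxcl10. Of these, Ccl9 and Cxcl2 were called, while Ccl20 and Ccr3 were below the filter and not tested. By gene, 33.3% of the 6 called and 31.6% of the 19 tested family genes with a window held the consensus. Over all tested genes with a window 6.26% held it. Cxcl1, Cxcl2 and Cxcl3 each held it within 100 bases of the start, as overlapping matches on both strands, although Cxcl2 was called and Cxcl1 was not, and Ccl9 held it on the other strand. The 150 bases before the start are shown for these 4 genes (Cxcl1 chr5:90891095-90891244, Cxcl2 chr5:90903749-90903898 and Cxcl3 chr5:90785951-90786100 on the plus strand, Ccl9 chr11:83578637-83578786 on the minus strand), with the NF-kB consensus in capitals.
Cxcl1: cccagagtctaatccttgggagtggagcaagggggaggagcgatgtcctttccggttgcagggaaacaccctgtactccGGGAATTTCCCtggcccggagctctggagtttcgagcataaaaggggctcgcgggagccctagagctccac
Cxcl2: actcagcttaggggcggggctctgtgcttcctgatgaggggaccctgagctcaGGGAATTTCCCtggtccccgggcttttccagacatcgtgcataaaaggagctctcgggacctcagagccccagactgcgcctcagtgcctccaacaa
Cxcl3: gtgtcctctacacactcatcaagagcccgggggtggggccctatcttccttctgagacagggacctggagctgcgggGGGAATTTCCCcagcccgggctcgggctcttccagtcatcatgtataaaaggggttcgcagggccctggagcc
Ccl9: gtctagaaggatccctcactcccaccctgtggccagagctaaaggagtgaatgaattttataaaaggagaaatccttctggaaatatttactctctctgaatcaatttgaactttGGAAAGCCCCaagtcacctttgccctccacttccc
For Cxcr2 the 60 bases around its CCAAT match are shown (chr1:74153774-74153833, plus strand), with the match in capitals, which reads as the reverse complement.
Cxcr2: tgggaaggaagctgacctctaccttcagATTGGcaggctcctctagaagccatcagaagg
A match is a description of the letters and was not tied to the levels by any test.

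Of the interferon-induced CXC ligands, which attract T cells through CXCR3, Cxcl10 alone passed the filter. It was at 0.287, 0.652 and 0.165 CPM against 0.268, 0.149 and 0.407 CPM, and the genotypes overlapped (log2 fold change 0.44, FDR 0.606, edgeR). Cxcl9 and Cxcl11 had at most 3 counts in any library, and Cxcr3 at most 5.

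Cxcl12 (stromal cell-derived factor 1), the ligand of CXCR4 and ACKR3, was among the most abundant chemokines in both genotypes. Its level was 143, 151 and 148 CPM in NF-YA cKO and 58.5, 110 and 53.8 CPM in the NF-YA fl/fl libraries. The genotypes did not overlap, with a log2 fold change of 0.99 (SE 0.27, FDR 0.0262, edgeR), which missed both thresholds. Without NF-YA fl/fl replicate 2 the gene was called, at a log2 fold change of 1.38 (FDR 0.000468), and in the other 5 fits that left out a library it was not. In TPM, which also reflects transcript lengths, the genotypes overlapped (61.0, 53.5 and 59.9 TPM against 28.4, 64.0 and 17.9 TPM).

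The splice forms of Cxcl12, which differ in the C-terminal end of the protein, were present in different shares. The alpha form (NM_021704) held 50%, 45.4% and 47.8% of the gene's TPM in NF-YA cKO and 64.9%, 63.7% and 53.6% in NF-YA fl/fl. The beta form (NM_013655) held 37.8%, 42.4% and 39.3% against 29.3%, 29.4% and 27.1%. The genotypes did not overlap in either share, with alpha lower and beta higher in NF-YA cKO, each with p = 0.1 in a two-sided exact permutation test, the smallest that 3 against 3 libraries can give. The gamma form (NM_001012477) overlapped (12.5 ± 0.416% against 10.7 ± 7.49%, SD, n = 3 each, exact permutation p = 1). Shares within a gene come from RSEM's division of shared reads.

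The ends of the 3 coding sequences show how the forms differ. They share 89 codons, whose last bases begin at chr6:117173562 on the plus strand (GRCm38), and are printed from there in lower case, with the bases of each form's own end in capitals. The alpha form ends at once with a stop codon at chr6:117173580-117173582, the beta form continues at chr6:117178584-117178598 to a total of 93 codons, and the gamma form continues at chr6:117176087-117176101 to 119 codons, of which the first bases are shown.
alpha: gagaaagctttaaacaagTAA
beta: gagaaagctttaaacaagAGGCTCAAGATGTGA
gamma: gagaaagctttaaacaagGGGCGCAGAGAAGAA

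**Figure D3:**
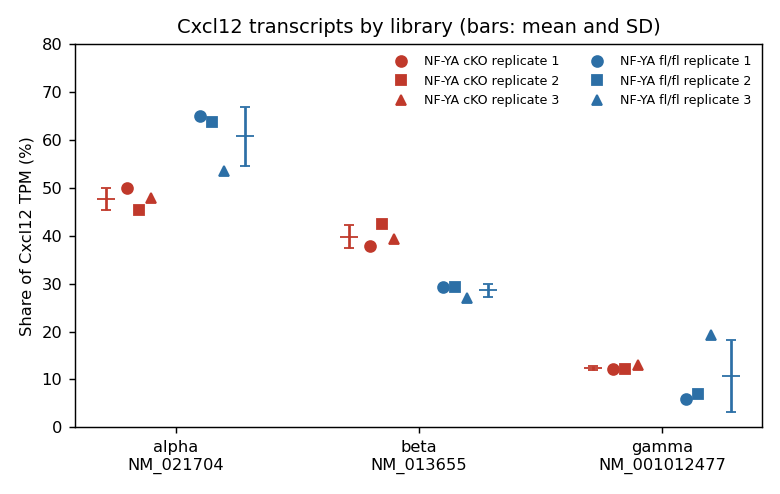
Share of Cxcl12 TPM held by each transcript form in each library, with mean and SD beside the points, NF-YA cKO in red and NF-YA fl/fl in blue. Alpha holds 47.7% of Cxcl12 TPM on average in NF-YA cKO and 60.7% in NF-YA fl/fl, and beta 39.8% and 28.6%.

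The membrane-bound ligands Cxcl16 and Cx3cl1, which also anchor leukocytes to the cell surface, were both expressed. Cxcl16 was at 14.6, 7.65 and 5.99 CPM against 4.17, 2.80 and 0.814 CPM. The genotypes did not overlap, and the log2 fold change of 1.86 (SE 0.59, FDR 0.0437, edgeR) was not called. Its annotated gene overlaps Zmynd15. The coding entry NM_023158 held 23.3%, 18.3% and 23.4% of Cxcl16 TPM against 29.4%, 35.0% and 79.6% (two-sided exact permutation p = 0.1). The non-coding entry XR_001780038 held 64.9%, 74.4% and 76.6% against 70.6%, 54.5% and 20.4%, so the level of the gene is not that of its coding form. The genotypes overlapped in the non-coding share (two-sided exact permutation p = 0.2). In NF-YA fl/fl replicate 3 the gene had only 24 counts, divided into 20.27 for the coding and 3.73 for the non-coding entry. Cx3cl1 was at 14.3, 16.5 and 18 CPM against 11.7, 19.3 and 6.24 CPM, with overlap (log2 fold change 0.39, FDR 0.440).

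Cxcl14, a chemokine of epithelia and stroma, was at 3.38, 4.30 and 5.45 CPM in NF-YA cKO and at 8.79, 6.96 and 0.373 CPM in the NF-YA fl/fl libraries (log2 fold change -0.29, FDR 0.807, edgeR). NF-YA fl/fl replicates 1 and 2 were above every NF-YA cKO library and replicate 3 was below, so that the genotypes overlapped. Without replicate 3 its log2 fold change was -0.84 (FDR 0.0225), and without replicate 1 it was 0.24.

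The other tested CC ligands were low and overlapped between the genotypes. Ccl25, a thymic and intestinal chemokine, was at 2.17, 2.20 and 2.16 CPM against 2.60, 1.40 and 3.46 CPM (log2 fold change -0.19, FDR 0.683, edgeR). Ccl27a, a skin chemokine whose annotated gene overlaps Il11ra1, was at 1.31, 1.54 and 1.69 CPM against 1.49, 1.16 and 2.58 CPM (log2 fold change -0.20, FDR 0.670). Ccl17, a ligand of CCR4, and Ccl28, a mucosal chemokine, were at 0.329 to 0.459 against 0.0679 to 0.344 CPM and at 0.169 to 0.446 against 0.208 to 0.373 CPM, with log2 fold changes of 1.0 (FDR 0.174) and 0.24 (FDR 0.723). Without NF-YA fl/fl replicate 3 the log2 fold changes of Ccl25 and Ccl27a turned to 0.13 and 0.20.

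Among the CC receptors Ccr1, the receptor of CCL3, CCL6 and CCL9 on macrophages and neutrophils, was called higher. It was at 2.55, 2.61 and 1.43 CPM in NF-YA cKO and at 0.191, 0.178 and 0 CPM in the NF-YA fl/fl libraries, for a log2 fold change of 4.12 (SE 0.68, FDR 0.00428, edgeR). The genotypes were separate, but the call was lost in 5 of the 6 fits that left out a library (FDR 0.0102 to 0.0243), all except that without NF-YA fl/fl replicate 3.

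Ccr2, the receptor of CCL2, stayed below the filter with 10, 1 and 2 counts against 0, 1 and 0 counts, in libraries with 24.2 to 74.8 CPM of Ccl2 in NF-YA cKO. Ccr9, the receptor of CCL25, was at 0.329 to 0.434 against 0.238 to 0.743 CPM (log2 fold change -0.58, FDR 0.352), and its log2 fold change was -0.94 (FDR 0.043, edgeR) without NF-YA fl/fl replicate 3.

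Among the CXC receptors Cxcr2, the receptor of the ligands with the Glu-Leu-Arg motif, was called higher. It was at 31.7, 27.9 and 35.4 CPM in NF-YA cKO and at 11.5, 14.7 and 14.4 CPM in the NF-YA fl/fl libraries. The spread within each genotype was small, and the log2 fold change of 1.23 (SE 0.15, FDR 0.00150, edgeR) kept its call in each of the 6 fits that left out a library (FDR 0.00109 to 0.00991), though not with glmTreat or limma on TPM. It was the most abundant receptor by mean TPM in NF-YA cKO (11.8 ± 2.16 against 5.37 ± 1.41 TPM, SD, n = 3 each). In the NF-YA fl/fl libraries the neutrophil marker S100a8 was at 0.0382, 0 and 0 CPM and Csf3r at 0.268, 0.387 and 0.916 CPM. The part of the neutrophil markers in the difference of Cxcr2 between the genotypes was not tested.

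Cxcr4, the receptor of CXCL12, was at 8.20, 10.6 and 13.6 CPM against 11.2, 15.4 and 30.6 CPM, with overlap (log2 fold change -0.82, SE 0.38, FDR 0.132, edgeR). It was the most abundant receptor of NF-YA fl/fl SCs by mean TPM (12.6 ± 4.82 against 6.98 ± 1.83 TPM, SD, n = 3 each), and here NF-YA fl/fl replicate 3 was the highest library. Without it the log2 fold change of Cxcr4 was -0.31 (FDR 0.312, edgeR). Cxcr6, the receptor of CXCL16, was at 0.861, 0.676 and 1.06 CPM against 1.03, 1.67 and 0.577 CPM (log2 fold change -0.34, FDR 0.549).

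**Figure D4:**
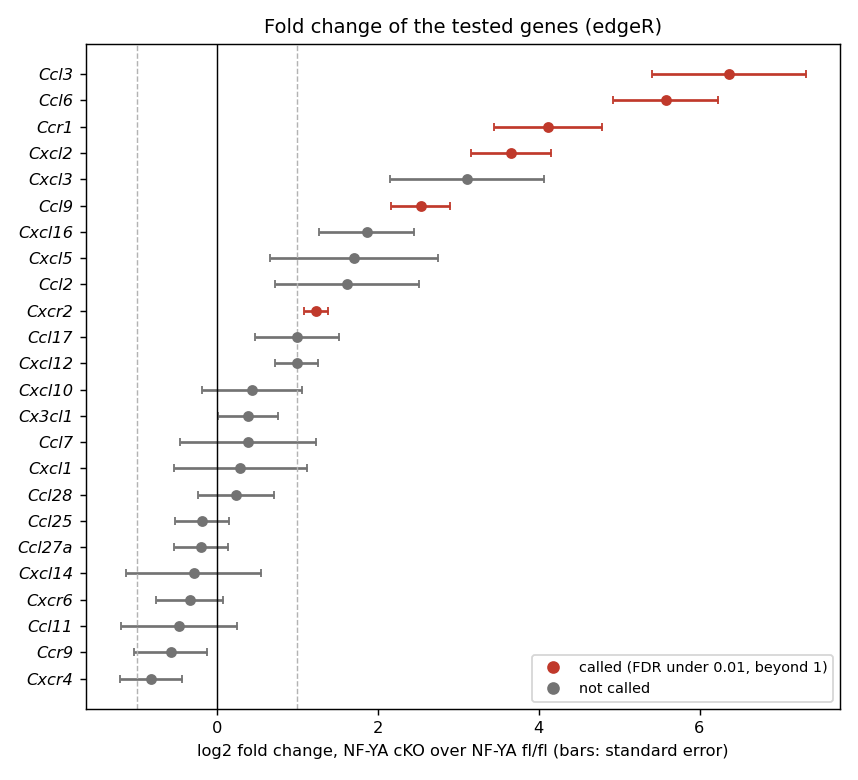
Log2 fold change of 24 of the 25 tested genes, NF-YA cKO over NF-YA fl/fl, with the standard error as bars, the 6 called genes in red and the others in grey. Values run from -0.82 for Cxcr4 to 6.37 for Ccl3, and several uncalled genes such as Cxcl3 and Cxcl5 have wide bars.

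The remaining 21 genes of the family had at most 24 counts in any library (Ccl4). In CPM, every NF-YA cKO library lay below every NF-YA fl/fl library for Ccr4 (0.0638 to 0.169 against 0.238 to 0.344 CPM) and Cxcl13 (0.0724 to 0.118 against 0.229 to 0.305 CPM). The reverse order was seen for Ccl4 (0.235 to 0.765 against 0.0297 to 0.115 CPM) and Cxcr3 (0.0705 to 0.121 against 0 to 0.0339 CPM). These values rest on a few reads each and no difference was tested, and the other genes of this group overlapped between the genotypes.

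The signalling genes around the family were described from a list of 85 names (atypical receptors, platelet chemokines, G protein subunits and regulators, kinases, proteases and cytokines), of which 83 were in the files and 78 were tested. In NF-YA cKO 22 were called higher, where 4.65% of all tested genes were. The median log2 fold change was 0.72, against -0.02 over all tested genes. Of the 22, Fgr, Pf4, Dock2, Rgs1, Vav1, Was, Pik3cg, Rac2, Csf2rb, Rarres2 and Il1a passed the filter only through NF-YA cKO libraries. Of all tested genes that passed in this way 18.8% were called higher, so the count of 22 is a description and not evidence about the list. The 22 became 3 without NF-YA cKO replicate 1, 3 without NF-YA cKO replicate 2, 7 without NF-YA cKO replicate 3, 4 without NF-YA fl/fl replicate 1 and 4 with glmTreat. At the same thresholds none was called lower by edgeR or limma, 3 had a negative fold change at an unadjusted p under 0.05 (Ackr4, Gng2 and Rgs5), and DESeq2 called 1 lower (Rgs5). The atypical receptor Ackr3, which binds and removes CXCL12, was at 41.5, 47.1 and 47.0 CPM against 9.75, 15.5 and 4.88 CPM (log2 fold change 2.17, SE 0.38, FDR 0.00515, edgeR). It was separate between the genotypes, as was Cxcl12, whereas Cxcr4 overlapped.

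Pf4, the platelet factor that macrophages also express, had 311 counts in NF-YA cKO and 3 in NF-YA fl/fl, a ratio of 83.2 with a 95% exact interval of 28.2 to 406. The platelet chemokine Ppbp was at 0.141 to 0.446 against 0 to 0.357 CPM and was not called, and Xcl1 was at 0 in every library. Of the other receptors, Cx3cr1, the receptor of CX3CL1, was at 0.574 to 0.823 against 0.204 to 0.624 CPM and Cmklr1, the chemerin receptor, at 1.69 to 6.46 against 1.66 to 6.99 CPM, neither called. Ccrl2 (FDR 0.132), Xcr1 (FDR 0.268) and Ackr4 (log2 fold change -0.95, FDR 0.0397) were not called by edgeR either, and Ackr1 and Ackr2 were below the filter.

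The 10 further called genes with the largest fold changes began with Fgr. This Src-family kinase had 55 counts in NF-YA cKO and 0 in NF-YA fl/fl, at least 14.7-fold higher against a floor of 3 counts over the group. The others were the cytokine Il1a (log2 fold change 5.18), the protease Mmp9 (4.43), the guanine exchange factor Dock2 (4.32), the cytokine receptor subunit Csf2rb (4.24), the signalling regulator Rgs1 (4.24), the protease Mmp12 (3.38), the chemerin precursor Rarres2 (3.28), the macrophage colony-stimulating factor receptor Csf1r (2.74) and the exchange factor Vav1 (2.65). Csf1r is also on the macrophage marker list. Nfkbia, a target and inhibitor of NF-kB, was called as well (47.6, 39.2 and 31.7 against 11.9, 19.5 and 13 CPM), and is named here after its values were seen.

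The calls of Ccl3, Ccl9 and Ccr1 were also lost with glmTreat, which tests against a log2 fold change of 1 (FDR 0.0112, 0.0195 and 0.0190), and with limma on log2(TPM + 1), which compresses low levels (log2 fold changes of 1.54, 1.33 and 0.82).

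**Figure D5:**
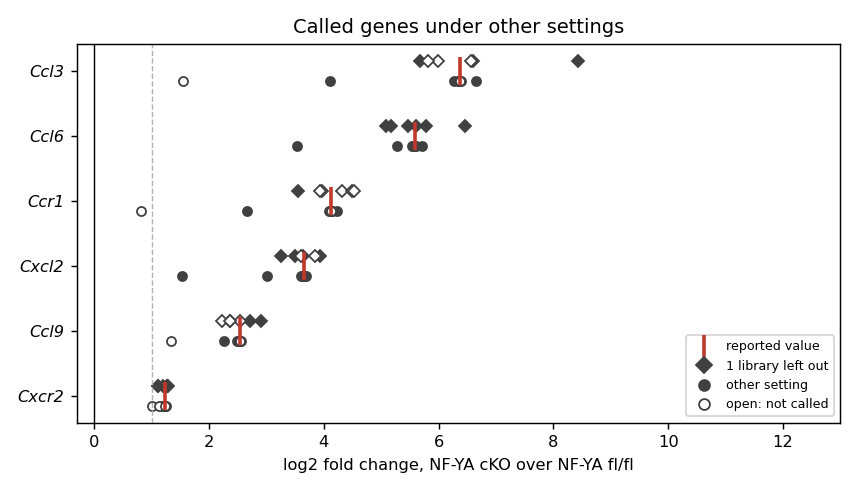
Log2 fold change of the 6 called genes as reported (red bar), with 1 library left out (diamonds) and under other settings (circles), open where the gene was not called. Ccl6 is called under all 14 settings shown, Cxcl2 under 12, Cxcr2 under 11, Ccl3 and Ccl9 under 9 and Ccr1 under 7.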

How the data were processed

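RNA-seq libraries of cultured SCs (3 NF-YA cKO, 3 NF-YA fl/fl) were grouped by the sample labels. Reads had been mapped by the authors with bowtie2 against mm10 transcripts, and RSEM gave the deposited values. Expected counts were deposited without normalization. The deposited TPM values are scaled to transcript length and to the same total in each library, and the deposited transcript files also give each transcript's percent of its gene's TPM. How strand was set in the quantification is not given in the sources used here. Antisense and overlapping genes may therefore share reads. Besides the overlaps named with Ccl3, Ccl6, Ccl27a and Cxcl16, the annotated genes of Ccl25, Ccr9, Cx3cl1, Cxcl10 and Cxcr6 overlap other genes.

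Expected counts were rounded, and a gene was tested if its count exceeded 10 in 2 or more libraries. Genotypes were compared with edgeR 4.0.16 in R 4.3.3 (TMM, quasi-likelihood test, genotype only, two-sided, Benjamini-Hochberg FDR over 17348 genes). Calls required a log2 fold change beyond 1 in either direction with an FDR under 0.01. CPM values use TMM library sizes. Other settings tried were DESeq2 1.42.0, edgeR with DESeq2's size factors, filterByExpr, no filter, limma 3.58.1 on log2(TPM + 1) and log2(TPM + 0.1), an FDR under 0.05, glmTreat, a replicate block and leaving out each library. Transcript shares were compared with exact permutation tests. The fit was tested on simulated counts. Ratios of summed counts have exact 95% intervals (scipy 1.17.1), and intervals and floors cover counting error only. Figures were drawn with matplotlib 3.10.9.

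Every gene of the family that passed the filter is named except 1, which is counted but not reported here, and from the signalling list the receptors, Pf4, Ppbp, Xcl1 and the 10 further called genes with the largest change. The genes and lists were chosen with earlier results of these data known. Marker lists covered macrophages, neutrophils, T and NK cells, B cells, endothelium, fibro-adipogenic progenitors, pericytes, Schwann cells, satellite cells and differentiating muscle. No source used here says which libraries came from separate mice, so the p-values measure the spread between these libraries, which may be technical.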

Additional observations from a re-analysis of the deposited data

How the results depend on the processing

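The count of chemokine and receptor genes called higher was 6, and it was 2 with limma on log2(TPM + 1), 2 with glmTreat and 2 to 6 when 1 library was left out, with 2 without NF-YA cKO replicate 2 and 2 without NF-YA fl/fl replicate 1. DESeq2 and an FDR under 0.05 each gave 9. The count called lower was 0 under every setting run. The 22 signalling genes called higher became 7 with limma on log2(TPM + 1), 11 with limma on log2(TPM + 0.1), 4 with glmTreat and 3 to 21 when 1 library was left out, with 3 without NF-YA cKO replicate 1 or 2, 7 without NF-YA cKO replicate 3 and 4 without NF-YA fl/fl replicate 1. The 0 called lower became 1 with DESeq2, 1 at an FDR under 0.05 and 0 to 3 when 1 library was left out. The cause of these differences was not tested, beyond the fewer libraries of the fits that left one out.

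The sign of the log2 fold change turned for uncalled genes only. The ranges over the fits that left out 1 library were -1 to 0.22 for Ccl11, -0.49 to 0.13 for Ccl25, -0.43 to 0.20 for Ccl27a, -0.0725 to 0.53 for Ccl28, -0.17 to 0.87 for Ccl7, -0.30 to 0.79 for Cxcl1, -0.84 to 0.24 for Cxcl14 and -0.66 to 0.10 for Cxcr6, and Cxcl14 was also at 0.37 with limma on log2(TPM + 0.1). The replicate numbers did not pair the libraries (correlations of 0.17, -0.07 and 0.05 between deviations of libraries with the same number). With the replicate block 6 family genes and 16 signalling genes were called higher, and the log2 fold change of Cxcl14 was 0.18.

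Genes without more than 10 counts in 2 libraries were not compared, and with 3 libraries per genotype the biological coefficient of variation was 0.105 in NF-YA cKO and 0.310 in NF-YA fl/fl.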

Other observations

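NF-YA fl/fl replicate 3 differed from the other NF-YA fl/fl libraries in genes outside the chemokine family as well. Myod1, a regulator of muscle commitment, was at 1146 CPM there and at 361 and 295 CPM in replicates 1 and 2. Myf5, another such regulator, was at 61.6 CPM against 21.2 and 12.6 CPM. Pdgfrb, a receptor of perivascular cells, was at 56.5 CPM against 276 and 304 CPM, and Ly6a, which encodes Sca1, at 2.85 CPM against 18.5 and 26.9 CPM. These values are given as measured.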
